A study of Homo sapiens with 15 samples.

Results

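The MUT3 dose series consists of 5 RNA-seq libraries from 1 single-cell-derived breast cancer clone, out of 15 libraries in the study, chosen by the clone name in the sample labels. MUT3 cells carry a doxycycline-inducible RBM47-I281fs, a frameshift mutant of the RNA-binding protein RBM47, and were sampled as 1 library each at 0, 1, 2.5, 5 and 25 ng/ml of the drug. The comparison series has the same 5 doses in WT10 and WT6 cells, clones that carry inducible wild type RBM47. The labels place every clone in the MDA231 line, and the study's methods derive MUT3 and WT10 from its brain metastatic subline 231-BrM2 and WT6 from CN34-BrM2. Because MUT3 is 1 clone and no condition has a replicate, features of the clone cannot be told apart from features of the mutant, and doxycycline was not given here to cells without a transgene. A response to the drug itself and a response to the truncated product therefore cannot be told apart within MUT3 cells. The study reports low levels of the mutant protein although its mRNA was abundant, and took that protein to be unstable and inactive. On its Western blot of inducible 231-BrM2 cells, the mutant protein was not detected. Protein was not measured here, so RBM47 mRNA does not give the amount of truncated product.

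RBM47 binds RNA through RNA recognition motifs in its N-terminal portion and acts on the stability and processing of its target transcripts. In a Tet-on system, a reverse transactivator binds doxycycline and drives the transgene from a promoter that is otherwise nearly silent, so the dose of the drug sets the level of the transgene mRNA. A frameshift changes every codon after its site and usually ends in an early stop codon, so the C-terminal portion of the normal protein is lost even where the mRNA accumulates.

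The RBM47 gene lies on the minus strand of chr4:40425284-40632892 (hg19). The frameshift position was looked up in the genome to show where the mutant departs from the wild type. In transcript ENST00000295971, which has 593 codons, the isoleucine codon ATC is codon 280 and the next codon, CGC for arginine, is codon 281, so the number in the allele name differs by 1 from the numbering of this transcript. These codons are in exon 4, and 313 codons follow codon 280. The wild type coding strand with codons 280 and 281 in capitals is at chr4:40440059-40440085 (hg19, minus strand).
RBM47 around codon 280: cgcgtcaagaagATCCGCgactacgcc

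Reads on genes ranged from 14955172 in the untreated MUT3 library to 20442942 at 5 ng/ml, and values are given as normalized counts, the reads on a gene divided by a size factor for its library. The untreated library had the lowest depth of the 5, and 3 reads in it correspond to 3.75 normalized counts. Of 10 markers fixed for a triple-negative breast line, all 10 passed the filter, with VIM between 92105 and 104639. Of 10 epithelial and receptor markers fixed as low in the line, 6 passed the filter and the list summed to between 2664 and 2966 normalized counts, led by ERBB2 and KRT19, while CDH1 had at most 1 read in any MUT3 library. Of 8 markers of blood and endothelial cells, CD14 alone passed the filter, at 26.3 to 40.0, and PTPRC, CD3E and CDH5 had 0 reads in all 5 libraries.

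RBM47 mRNA rose with dose. Its normalized count in MUT3 cells was 73.8 untreated (95% exact Poisson interval 56.2 to 95.2, from 59 reads), 92.1 at 1 ng/ml (73.4 to 114), 336 at 2.5 ng/ml (301 to 374), 949 at 5 ng/ml (892 to 1009) and 22084 at 25 ng/ml (21787 to 22384). These intervals cover counting error only. The intervals at 0 and 1 ng/ml overlap, and those of the 3 higher doses do not overlap with any other. The 25 ng/ml value was 299 times the untreated value, and RBM47 reads made up 0.116% of reads on genes there. The step from 5 to 25 ng/ml held 55.3% of the whole log2 change. In WT10 cells the count was 168 untreated, 827, 2822 and 8134 at the intermediate doses and 19877 at 25 ng/ml, so the MUT3 and WT10 libraries were closest to each other at the highest dose. Transgene and endogenous transcripts are counted together.

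**Figure D1:**
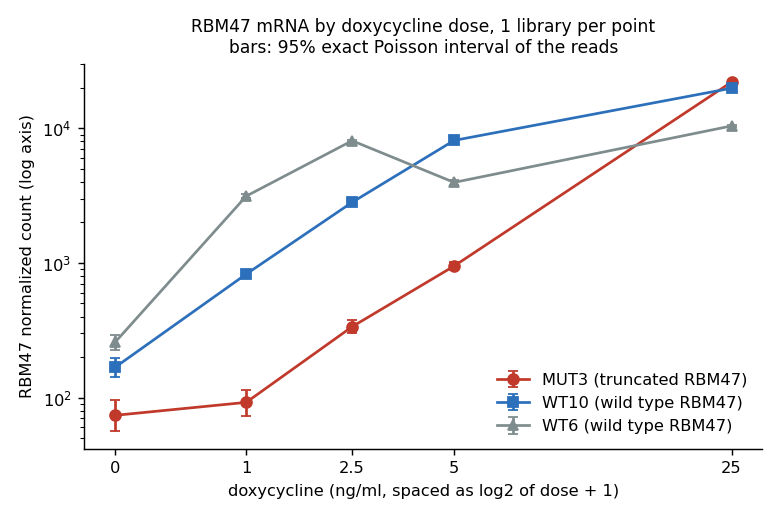
RBM47 normalized count on a log axis against doxycycline dose in ng/ml, spaced as log2 of the dose plus 1, with 1 library per point and 95% exact Poisson intervals as bars. MUT3 cells stayed at or under 949 up to 5 ng/ml and reached 22084 at 25 ng/ml, while WT10 and WT6 cells were higher at every dose below 25 ng/ml.

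The first question was which transcripts changed with dose. For every gene with a mean of at least 10 normalized counts in MUT3 cells, the slope of log2(normalized count + 1) on log2(dose + 1) was fitted with limma over the 5 libraries, so a slope of 1 is a doubling of the count for each unit of log2(dose + 1). With RBM47 included, 177 of 13317 genes (1.33%) had a slope at a Benjamini-Hochberg adjusted p under 0.05, of which 114 rose (0.856%) and 63 fell (0.473%). Without RBM47 itself, the rising slopes ran from 0.04 to 0.71 and the falling slopes from -0.97 to -0.05. The changes were mostly small: 34 of the 114 rising genes and 25 of the 63 falling genes differed by more than 1.5-fold between 0 and 25 ng/ml, and 14 and 22 by more than 2-fold.

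Among the called genes, which were chosen by their slope in these same libraries, the rises and the falls were placed differently along the doses. For 79 of the 114 rising genes, more than 50% of the log2 change between 0 and 25 ng/ml lay between 5 and 25 ng/ml. Of the 63 falling genes, 20 changed that way, and 37 had more than 50% of their change between 0 and 2.5 ng/ml. On the scale of the fit, 2.5, 5 and 25 ng/ml lie at 1.81, 2.58 and 4.70. A constant slope therefore also puts much of its change in each of these steps. The same shares were not taken over all genes. The highest dose carries most weight in a slope, with a leverage of 0.768 out of 1, against 0.522 for the untreated library. Without the 25 ng/ml library 35 genes were called (7 rising, 28 falling), and without the untreated library 66 (45 rising, 21 falling). These calls rest on the spread within MUT3 cells, which leaves 3 residual degrees of freedom for a gene. The variance of each gene was also moderated with that of all genes fitted (empirical Bayes), on which the small p-values depend. With the spread shared among all 15 libraries 2 genes were called, RBM47 and UST.

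The 10 largest rises with dose were RBM47, GALNTL1, KIAA1324, AKR1C1, PAK6, SEMA3B, SLC37A1, MFI2, IL1A and UST. GALNTL1 (now GALNT16), at chr14:69725994-69823750 (hg19), belongs to the family of enzymes that start mucin-type O-glycosylation. Its normalized count was 12.5, 22.2, 26.7, 24.8 and 123 from the untreated library to 25 ng/ml, or 10 reads against 117 at the ends. The 4 lower doses lay within a range of 14.2 of each other and the 25 ng/ml library lay apart (slope 0.71, SE 0.07, adjusted p = 7.02e-11). SEMA3B, a secreted semaphorin, was at 95.04, 105, 147.3, 110 and 239 (slope 0.28, SE 0.04, adjusted p = 4.48e-06). MFI2 (now MELTF), a surface protein of the transferrin family, was at 259, 295, 299, 313 and 609 (slope 0.27, SE 0.03, adjusted p = 3.08e-10). UST, which adds sulfate to uronic acid residues of glycosaminoglycans, was at 126, 127, 177, 183 and 280 (slope 0.26, SE 0.04, adjusted p = 4.74e-07). For each of these 4 genes the 25 ng/ml library was the highest of the 5, as it was for 111 of the 114 rising genes and 25.9% of all genes. Choice by a rising slope favours this, since the highest dose carries most weight in a slope.

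The remaining genes of that group had fewer reads. KIAA1324 (now ELAPOR1) rose in steps, at 8.75, 11.1, 14.8, 21.1 and 41.9, from 7 to 40 reads. AKR1C1, a ketosteroid reductase, had 3 reads in the untreated library and was at 3.75, 13.3, 14.8, 16.5 and 27.2, and reads may be shared with its close paralogs. PAK6, a serine/threonine kinase whose gene overlaps BUB1B-PAK6 on the same strand, was at 12.5, 15.5, 20.8, 15.6 and 38.8, and its adjusted p of 0.0474 was close to the threshold. SLC37A1, a sugar phosphate exchanger, was at 17.5, 24.4, 24.7, 29.4 and 47.1 with the same adjusted p. All 4 were called by their slope, and only KIAA1324 among them also passed at 25 ng/ml against the lower doses.

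The second question was what set the highest dose, with its high RBM47 mRNA, apart from the 4 lower doses. In this comparison, which uses the same libraries as the slope, 70 of 13317 genes (0.526%) passed, 59 higher (0.443%) and 11 lower (0.0826%) at 25 ng/ml. Leaving out RBM47, the 58 higher genes differed by 0.20 to 2.51 on the log2 scale, with a median of 0.36. The 11 lower genes differed by -0.46 to -0.21. The lone 25 ng/ml library is assumed to vary like the other 4. In a fit of all 15 libraries, changes among the lower doses of WT10 and WT6 cells also counted as spread. RBM47, with a log2 difference of 6.67, did not pass in that fit. With the spread shared among all 15 libraries 1 gene passed, GALNTL1, and with trends of gene length and GC content removed 31 did.

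The higher genes with the largest differences included IL1A, EBI3, ICAM1 and TRAF1, which encode a cytokine, a cytokine subunit, an adhesion receptor and a signaling adaptor of the TNF receptor family. IL1A, at chr2:113531502-113542070 (hg19), was at 81.3, 104, 105, 138 and 196 (log2 difference at 25 ng/ml 0.89, SE 0.17, adjusted p = 0.00444). ICAM1, at chr19:10381769-10397291, was at 363, 558, 660, 540 and 871 (0.75, SE 0.13, adjusted p = 0.00298). It was already higher at every dose than in the untreated library, and was 1 of 3 genes higher with any doxycycline. EBI3 was at 90.0, 95.4, 146, 121 and 204 (0.87, SE 0.17, adjusted p = 0.00487). TRAF1 was at 193, 222, 238, 260 and 376, each dose above the one before (0.73, SE 0.12, adjusted p = 0.00115).

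The 11 lower genes were MMP1, LOC100288077, CTGF, SNTB1, SRP9, SEC61G, SNHG5, GAS5, SLC25A36, G0S2 and RPS29. MMP1, the interstitial collagenase, at chr11:102660132-102668891 (hg19), was among the more abundant transcripts and was at 41122, 39330, 36105, 36722 and 28105 (log2 difference -0.45, SE 0.05, adjusted p = 1.02e-06). The gene overlaps WTAPP1 on the opposite strand, and reads of the 2 strands may not be separated. LOC100288077, which was not placed by the annotation used here, was at 7783, 7731, 7119, 7289 and 6073. Its untreated count was 8.33 times as high in MUT3 as in WT10 cells, and that of MMP1 10.1 times. Whether LOC100288077 and MMP1 share reads was not tested, so they may not be separate falls. CTGF (now CCN2), a matricellular growth factor, was at 8660, 7891, 7834, 8134 and 6581 (-0.30, SE 0.05, adjusted p = 0.00298). SNTB1, a syntrophin of the dystrophin complex, was at 682, 677, 711, 652 and 496 (-0.46, SE 0.09, adjusted p = 0.00877).

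The other 7 lower genes differed by less than MMP1 and SNTB1. SRP9, a protein of the signal recognition particle, was at 3725, 3849, 3645, 3820 and 3087 and SEC61G, a subunit of the translocon, at 1800, 1910, 1821, 1772 and 1509. The snoRNA host genes SNHG5 and GAS5 were at 3179 and 1932 at 25 ng/ml, under lowest values of 3769 and 2262 in the other 4 libraries. The mitochondrial carrier SLC25A36 was at 662 against 820 to 855, and G0S2, an inhibitor of the lipase ATGL, at 23377 against 24938 to 28362. RPS29, a ribosomal protein, was at 8379 against 9441 to 9950. In all 7, the 25 ng/ml library was below each of the others.

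**Figure D2:**
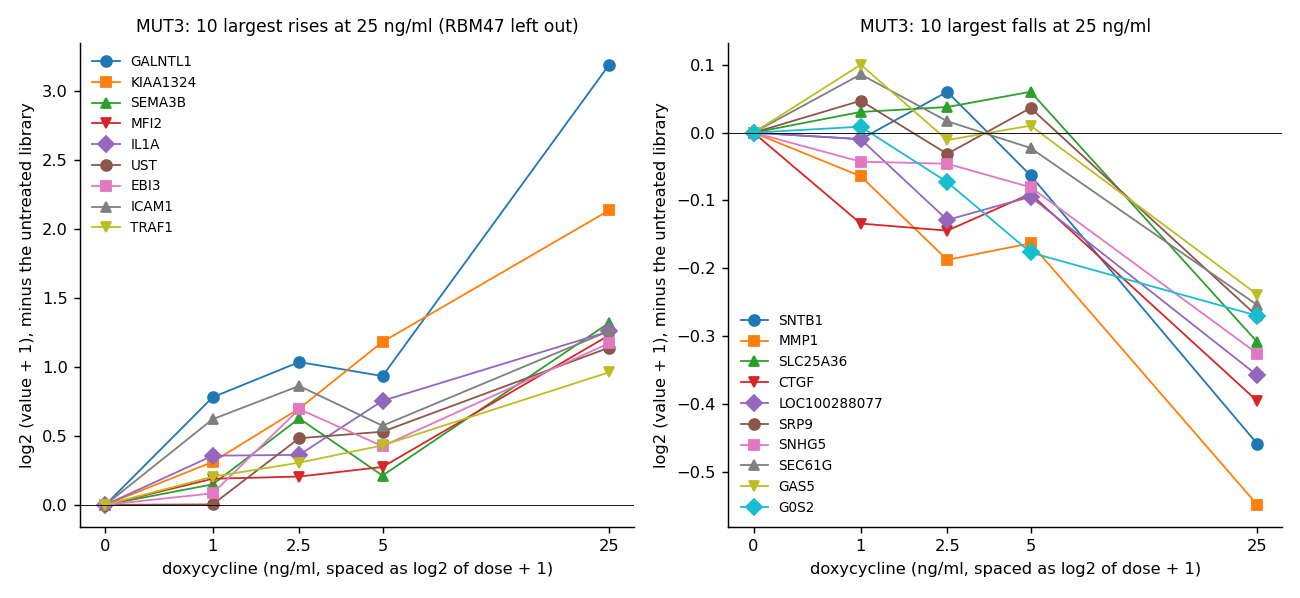
Change of log2(normalized count + 1) from the untreated MUT3 library at each dose, for the 10 genes with the largest rise at 25 ng/ml other than RBM47, which leaves 9 (left), and the 10 with the largest fall (right), with 1 library per point. The rises reached 3.19 for GALNTL1 while the falls stayed within 0.55, and most lines bend between 5 and 25 ng/ml.

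Of the gene lists, the one with the most rising members was the NF-kB and inflammatory list, which holds cytokines, NF-kB subunits and their targets. NF-kB proteins are transcription factors that are held by inhibitors such as NFKBIA, and the inhibitor and several subunits are themselves targets of the factor. Of 35 genes in the list 26 passed the filter on low counts, and 9 of these rose and 0 fell, beside 0.856% rising among all genes. Their median slope was 0.08, and that of all 13317 genes 0.00. In 25 of the 26 the slope was above 0, which was so for 7211 of the 13317 genes. The gene lists were chosen with earlier results of these data known, and all members share 5 libraries, so these counts are descriptive.

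By role, the cytokines that rose were IL1A and CSF1. CSF1, the macrophage growth factor, was at 1057, 1109, 1237, 1134 and 1380 (slope 0.08, SE 0.02, adjusted p = 0.0137). Of the factors and their inhibitors, NFKB2 was at 1657, 1830, 2003, 1836 and 2265 (slope 0.09, SE 0.02, adjusted p = 0.00101) and NFKBIA at 1182, 1196, 1296, 1337 and 1501 (slope 0.08, SE 0.02, adjusted p = 0.00714). RELB was at 1496, 1573, 1547, 1466 and 1912 (slope 0.07, SE 0.02, adjusted p = 0.0328), so its 4 lower doses showed no order. Of the downstream genes, BIRC3, an inhibitor of apoptosis, was at 2233, 2670, 2476, 2919 and 3413 (slope 0.12, SE 0.02, adjusted p = 1.09e-07). TNFAIP2 and the stress-inducible IER3 had slopes of 0.08 and 0.05, and ICAM1 0.22.

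Chemokines of the list did not pass. IL8 (now CXCL8), a neutrophil chemokine that rose with dose in WT10 cells, was at 294, 406, 303, 377 and 420 in MUT3 cells (slope 0.09, SE 0.03, adjusted p = 0.159). The largest slope of the list, 0.28, was that of CSF2 (adjusted p = 0.148), which had between 12.5 and 31.4 normalized counts, and the smallest, -0.01, that of SOD2. The number of called members was 4 without the untreated library, 1 without the 25 ng/ml library and 0 with the spread shared among all 15 libraries.

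**Figure D3:**
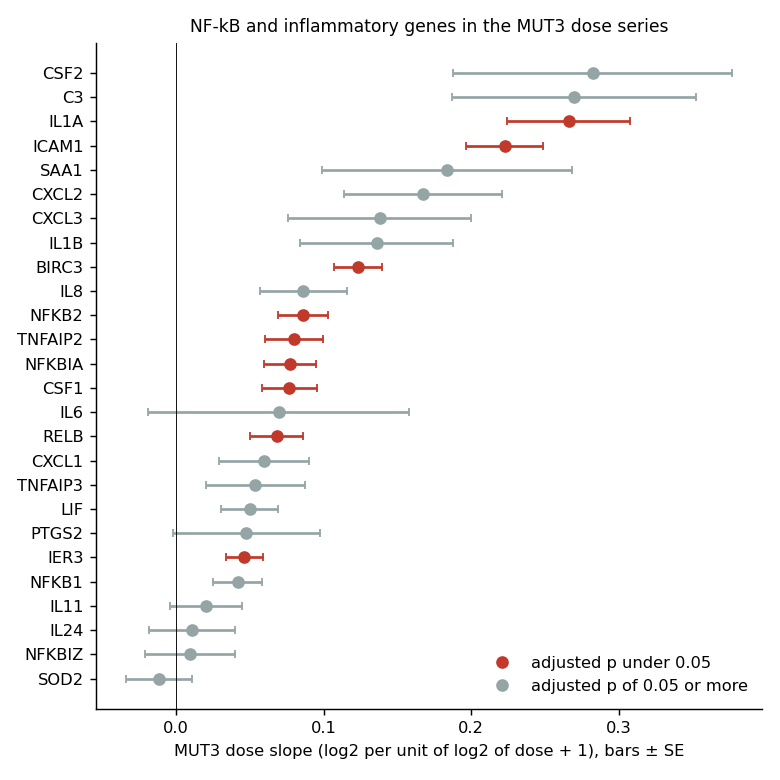
Slope of log2(normalized count + 1) on log2(dose + 1) in MUT3 cells, with the standard error as bars, for the 26 NF-kB and inflammatory genes that passed the filter. The 9 genes with an adjusted p under 0.05, drawn in red, have slopes from 0.05 for IER3 to 0.27 for IL1A, and SOD2 is the one gene below 0.

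Promoters of the 9 rising members were read for the kappaB consensus, a sequence of 10 bases bound by NF-kB, on both strands from 250 bases before to 50 after each start in RefSeq (GRCh38.p14). A window was given for 6 of them, and 3 (NFKBIA, NFKB2 and BIRC3) held a match. Of the 14 other measured members with a window 7 held one, and of all 27305 genes with a window 13.3% did, so the matches do not set the rising members apart within the list. Examples are given 5′ to 3′ along the gene, with the matching bases in capitals, from chr14:35404811-35404840 (minus strand), chr10:102395674-102395703 and chr11:102317275-102317304 (plus strand). In NFKBIA and BIRC3 the consensus is on the opposite strand. A match is a description of the sequence, and binding was not measured here.
NFKBIA: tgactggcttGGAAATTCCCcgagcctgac
NFKB2: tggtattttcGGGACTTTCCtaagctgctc
BIRC3: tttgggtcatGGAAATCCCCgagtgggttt

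Matrix metalloproteinases and their inhibitors moved in both directions. Of 12 measured members 3 rose and 1, MMP1, fell, beside 0.856% rising and 0.473% falling among all genes, the shares against which the counts of the lists that follow are to be read. MMP14, the membrane-bound collagenase, was at 12822, 13273, 13495, 13210 and 15188 (slope 0.05, SE 0.01, adjusted p = 0.0161). The tissue inhibitors TIMP2 and TIMP3 rose from 8674 to 10268 and from 4144 to 5225, with slopes of 0.05 and 0.07. Other list members that rose were the transcription factor KLF4 (510 to 889, slope 0.18, SE 0.02, adjusted p = 1.26e-07), the interferon-stimulated IFIT2 (226 to 365) and TAP1 (1950 to 2453), and P4HA2, a collagen hydroxylase of the hypoxia list (278 to 409). VIM and ITGB1, markers of the line, rose from 92105 to 104639 and from 9053 to 10758. GINS4, a subunit of the replicative helicase, fell from 2008 to 1513 (slope -0.09, SE 0.02, adjusted p = 0.000255), and it was the one called gene among 36 of G1/S phase. Of 40 G2/M genes TPX2 and CENPE rose, with slopes of 0.05 and 0.07. Of 75 cytosolic ribosomal proteins RPL34 and RPS29 fell, both with slopes of -0.05, and the untreated values were 1.16 times those at 25 ng/ml.

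Most of the lists had no called member. Doxycycline inhibits translation in mitochondria at high concentrations, and the 76 genes of the mitochondrial ribosome, the 75 nuclear genes of the respiratory chain, the 13 mitochondrial chaperones and proteases and the 32 genes of the ATF4 stress response had 0 called in any of the 3 comparisons within MUT3 cells, beside 1.33% of all genes by slope, with median slopes of -0.01, -0.02, 0.00 and -0.01. By sign, 5 of the 75 respiratory chain genes had a slope above 0, as did 22 of 76 of the mitochondrial ribosome, 7 of 13 chaperones and proteases and 7 of 32 ATF4 response genes, beside 7211 of 13317 genes. At an unadjusted p under 0.05 there were 12, 2, 3 and 6, beside 1395 of all genes. Genes encoded in the mitochondrial genome were not analysed here. An mRNA with a frameshift may be a substrate of nonsense-mediated decay, and of 18 factors of that pathway 0 were called (lowest slope -0.06, MAGOH). Decay of the RBM47 mRNA was not measured, and the levels of these factors do not report it. The list of the unfolded protein response (23 genes), that of cytosolic heat shock (18), the AU-rich element binding regulators (18), the Wnt pathway and its targets (23), cholesterol synthesis (23) and metallothioneins (8) also had 0 called. RBM47's relatives SYNCRIP, HNRNPR and DND1 had slopes of -0.02, 0.01 and -0.03, none called, and 0 of 4 measured neighbours of the RBM47 locus passed. DKK1, a secreted Wnt inhibitor, was at 5945, 5698, 5550, 5899 and 5862 (slope 0.00, SE 0.01, adjusted p = 0.982). VEGFA, an angiogenic factor, was at 1404, 1691, 1818, 1645 and 1657 (slope 0.03, SE 0.02, adjusted p = 0.572).

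The range of most of these lists is given by the members with the lowest and the highest slope. In the mitochondrial ribosome they were MRPS18C (-0.04) and MRPS28 (0.05), in the respiratory chain NDUFB1 (-0.06) and NDUFB4 (0.02), and among the mitochondrial chaperones and proteases HSPE1 (-0.06) and AFG3L2 (0.04). In the ATF4 response they were STC2 (-0.16, from 16.3 to 10.5 normalized counts) and SLC7A5 (0.04), in the unfolded protein response ERN1 (-0.03) and DNAJC3 (0.05), and in heat shock CHORDC1 (-0.02) and HSPA2 (0.08). In the Wnt list they were the transcription factor TCF7 (-0.10) and the receptor FZD1 (0.09, adjusted p = 0.0695), among the AU-rich element binders TIA1 (-0.02) and ZFP36 (0.09), and among metallothioneins and zinc transporters MT1A (-0.08) and SLC39A10 (0.02). Of the lists with called members, the most extreme slopes that did not pass were those of MMP11 (-0.19) and MMP9 (0.09) among the metalloproteinases, OASL (0.15) and XAF1 (-0.02) among interferon-stimulated genes, RPL39 (-0.06) and RPS27 (0.05) among ribosomal proteins, ADM (-0.05) in hypoxia, GINS3 (0.05) in G1/S phase and MAD2L1 (-0.02) in G2/M phase. Of the line markers S100A4 was the most positive (0.21, from 30.0 to 70.2, adjusted p = 0.113) and LGALS1 the most negative (-0.01).

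The third comparison set the untreated library against the 4 treated ones, and 17 of 13317 genes (0.128%) passed, 3 higher (0.0225%) and 14 lower (0.105%) with doxycycline. The lone untreated library is assumed to vary like the others, and with the spread shared among all 15 libraries 0 genes passed limma's test (105 at an unadjusted p under 0.05, and 15 by edgeR within MUT3 cells). The fit of all 15 libraries also counted changes among the treated doses of WT10 and WT6 cells as spread. ICAM1, EHF and EYS were the genes that passed as higher. EHF, an epithelial ETS factor, was at 843 untreated and 1087, 1130, 1133 and 1227 at the 4 doses (log2 difference 0.44, SE 0.08, adjusted p = 0.0130). EYS had 1 read in the untreated library and 12.9 to 16.6 normalized counts in the others. PLAU, the urokinase plasminogen activator, at 3587 untreated and 4360 to 5308 treated, and SLCO4A1, an organic anion transporter, at 664 and 845 to 999, came next and did not pass (adjusted p = 0.0544 for both).

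Of the 14 lower genes 8 encode RNAs that are known to stay in the nucleus or to lack a normal poly(A) tail, a description made after their values were seen. RMRP, the RNA of RNase MRP, at chr9:35657751-35658014 (hg19, minus strand), was at 265 untreated and 33.3, 18.8, 30.3 and 18.9 at the 4 doses, from 212 reads to 18 (log2 difference -3.38, SE 0.20, adjusted p = 2.29e-12). RPPH1, the RNA of RNase P, was at 114 and then 44.4, 27.7, 39.5 and 31.4 (-1.67, SE 0.21, adjusted p = 2.69e-05). MALAT1, a long noncoding RNA of nuclear speckles at chr11:65265111-65275544, was at 7339 and then 4318, 2208, 2024 and 1833 (-1.59, SE 0.19, adjusted p = 9.70e-06). In these 3 RNAs the untreated library was the highest and 1 ng/ml the next, with no further fall common to them from 2.5 to 25 ng/ml.

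In further RNAs the untreated library was also the highest of the 5. KCNQ1OT1, a nuclear antisense RNA that overlaps KCNQ1, was at 113 and then 56.6, 38.5, 40.4 and 45.05, and the paraspeckle RNA NEAT1 at 2672 and then 2325, 1962, 2090 and 1952. HIST1H1E, a linker histone, was at 176 and then 65.5, 34.6, 35.8 and 45.05 (-1.99, SE 0.20, adjusted p = 4.08e-07). Of the core histones, HIST1H4A was at 40.0 untreated and 2.10 at 25 ng/ml, the latter from 2 reads, and HIST1H3C at 75.0 and then 32.2, 34.6, 39.5 and 30.4, with no order among the 4 doses. PLAC4, at 33.8 and 6.29 at the ends, had 6 reads at 25 ng/ml. MIR3687 and MIR3648, which lie together in the region of ribosomal RNA precursor sequence on chromosome 21 and so may share reads with other copies, were at 414 and 584 untreated and at 113 and 166 at 25 ng/ml. SCARNA2, MUC6 and ZNF137P, called by their slope, were at 37.5, 33.8 and 25.0 untreated and at 7.33, 2.10 and 5.24 at 25 ng/ml. The filter on low counts took the mean of all 5 libraries. HIST1H4A, PLAC4, MUC6 and ZNF137P reached it only with the untreated value included.

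Taken by gene name, a grouping chosen after the values were seen and therefore not tested, the untreated library was the highest of the 5 for 21 of 22 measured replication-dependent histones, beside 18.3% of all genes. That count is biased by the filter, since a gene with few reads could pass it through a high untreated value, as HIST1H4A did. Over all 73 such histones, without the filter, the summed normalized count was 17164 untreated and between 14635 and 15302 in the other 4 libraries. RMRP, RPPH1 and TERC, the telomerase RNA, summed to 425 untreated and to between 61.3 and 109 at the 4 doses. MALAT1, NEAT1 and KCNQ1OT1 summed to 10124, 6700, 4209, 4155 and 3830. Of 60 small Cajal body and small nucleolar RNAs 25 were highest in the untreated library, and the group summed to 2681, 2474, 2247, 2394 and 2065. The share of reads outside annotated genes moved with these RNAs, at 58.8% in the untreated library, 57.7% at 1 ng/ml and 56.5 to 56.9% at the 3 higher doses. The part of that share, of RNA quality or of the poly(A) selection in these differences was not tested. Without the untreated library, 0 of 3 histones, 0 of RMRP, RPPH1 and TERC, and 1 of the 3 nuclear RNAs, MALAT1, kept a falling slope past the threshold. MIR3648 also did (slope -0.24, adjusted p = 0.0268).

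In WT10 cells some of these RNAs moved the other way and others did not. MALAT1 was at 2482, 3713, 3535, 4581 and 10612 in WT10 cells and RMRP at 13.0, 51.1, 29.9, 65.6 and 148. The replication-dependent histones, by contrast, summed to 12221 untreated and 9774 at 25 ng/ml in WT10 cells, and the small Cajal body and small nucleolar RNAs to 2260 and 2026, both lower at the highest dose as in MUT3 cells. The share of reads outside annotated genes rose in WT10 cells, from 56.6% untreated to 58.7% at 25 ng/ml. RMRP, RPPH1 and MALAT1 were thus highest, in both clones, in the library with the highest share. The same held in WT6 cells, where the share was highest at 25 ng/ml, at 59.6%. The histone sum did not follow the share in WT10 cells, where it was highest untreated, at the lowest share. In WT6 cells it rose from 4048 untreated to 8510 at 25 ng/ml.

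**Figure D4:**
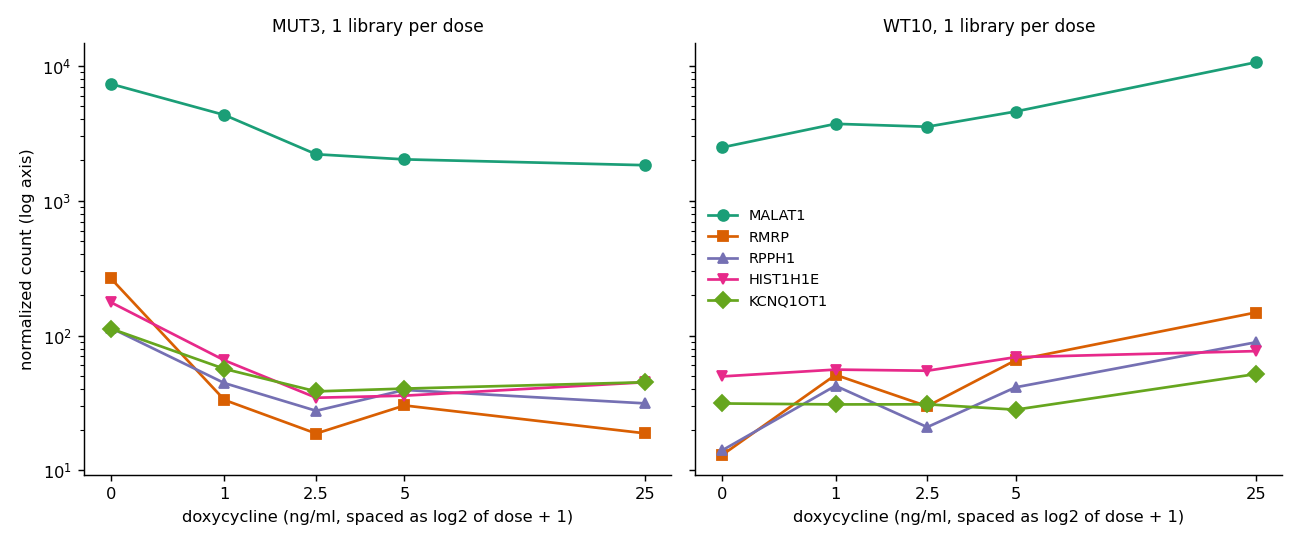
Normalized count on a log axis of MALAT1, RMRP, RPPH1, HIST1H1E and KCNQ1OT1 against doxycycline dose in MUT3 cells (left) and WT10 cells (right), with 1 library per point. In MUT3 cells each RNA is highest in the untreated library, and in WT10 cells each is highest at 25 ng/ml.

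The MUT3 slopes were then set against those of WT10, the wild type clone from the same subline, in 1 limma fit of 12644 genes with all 15 libraries. The slopes differed for 711 genes (5.62%), with the MUT3 slope higher for 375 (2.97%) and lower for 336 (2.66%). Without the 25 ng/ml libraries 0 differed by limma (790 at an unadjusted p under 0.05), while edgeR called 674 with all libraries. With only the WT10 and MUT3 libraries 2992 differed. With the log2 RBM47 count in place of dose 0 genes differed (1426 at an unadjusted p under 0.05), so every call named next was lost on that scale. RBM47 itself had a slope difference of 0.61 (SE 0.39, adjusted p = 0.382). Its counting intervals did not overlap between the clones at any dose, and its level over that of the untreated library was 1.25, 4.55, 12.9 and 299 times in MUT3 cells and 4.93, 16.8, 48.5 and 119 times in WT10 cells at 1, 2.5, 5 and 25 ng/ml. Of the 64 genes named by rule, 17 had slopes that differed between the clones, and PAK6, HIST1H4A, MUC6, PLAC4 and TIMP3 were not tested. Most were named for their change in these same MUT3 libraries, so the count is not to be set against the share of all genes. IL8 (difference -0.81, SE 0.09, adjusted p = 0.00258) and DKK1 (-0.41, SE 0.05, adjusted p = 0.00261) rose with dose in WT10 cells, from 266 to 4198 and from 7579 to 26822, and did not pass in MUT3 cells.

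Some genes rose in both clones and less in MUT3. IL1A reached 196 in MUT3 and 3193 in WT10 cells at 25 ng/ml, from 81.3 and 95.2 untreated (difference -0.89, SE 0.13, adjusted p = 0.00415). ICAM1 reached 871 and 2909 from 363 and 348 (-0.45, SE 0.08, adjusted p = 0.00744), and MFI2 609 and 1793 from 259 and 188 (-0.50, SE 0.10, adjusted p = 0.0122). Others differed in direction. MMP1 fell in MUT3 cells and rose in WT10 cells from 4092 to 12925 (-0.47, SE 0.08, adjusted p = 0.00512), and its untreated level was 10 times as high in MUT3 cells. CSF1 rose in MUT3 cells and fell in WT10 cells from 2162 to 1129 (0.29, SE 0.05, adjusted p = 0.00510). For NFKBIA, NFKB2, RELB, BIRC3, TRAF1 and EBI3 the slope difference did not pass, with values between -0.05 for EBI3 and 0.03 for NFKB2 and standard errors of 0.04 to 0.08. A missed threshold does not show equal slopes: of simulated slope differences of 0.15, 18.2 to 22.1% were called (12644 genes).

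Of the 111 rising genes other than RBM47 that were measured in all clones, 29 (26.1%) also rose in WT10 cells, beside 10.2% of all genes, and 13 (11.7%) fell, beside 9.83%. The 29 are 2.26% of the 1283 genes that rose in WT10 cells. In WT6 cells 42 (37.8%) rose and 32 (28.8%) fell, beside 29.2% and 28.3% of all genes. Of the 59 falling genes measured in all clones, 4 (6.78%) fell in WT10 cells and 9 (15.3%) rose, and their median WT10 slope was 0.05.

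**Figure D5:**
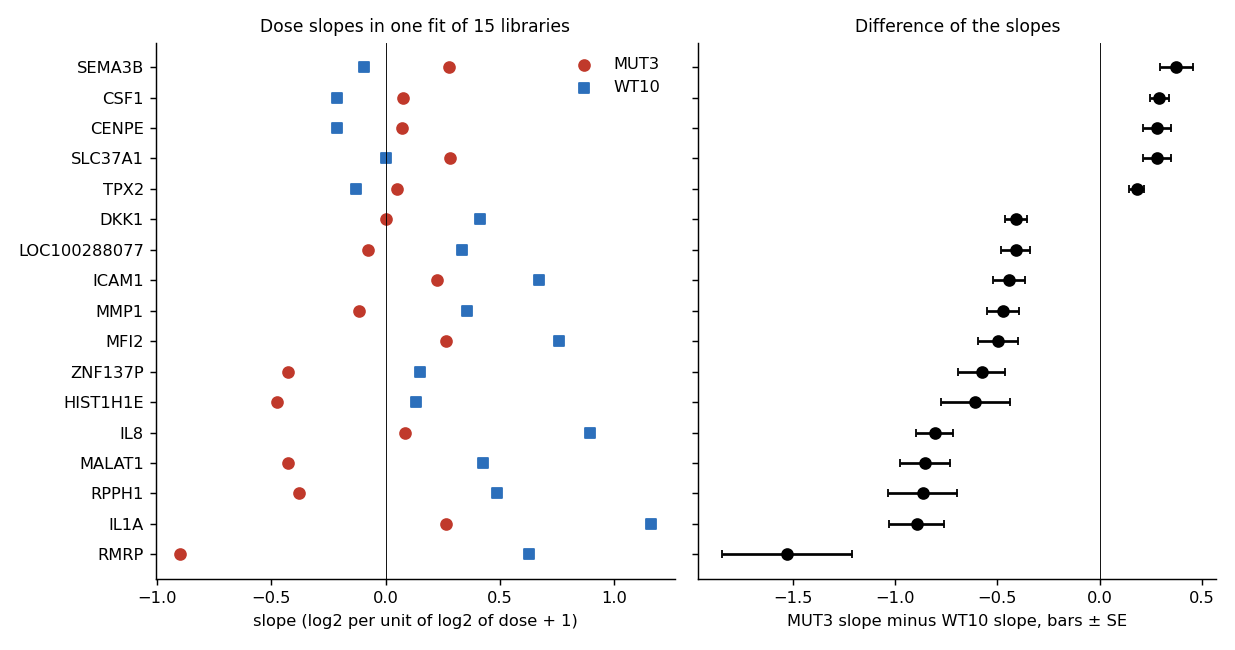
Dose slopes of the 17 named genes whose slopes differed between MUT3 and WT10 cells, in log2 per unit of log2(dose + 1) (left), and the difference MUT3 minus WT10 with its standard error (right), from 1 fit of 15 libraries. The 5 genes with a higher slope in MUT3 cells are SEMA3B, CSF1, CENPE, SLC37A1 and TPX2, and RMRP has the most negative difference, at -1.53.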

How the data were processed

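The authors sequenced paired-end mRNA libraries, mapped them to hg19 with STAR, counted reads per gene with HTSeq 0.5.4 at default settings and normalized the table to library size with DESeq. The deposited values are a signal, counts divided by a size factor. The annotation and whether libraries keep the strand are not given in the sources used here. To recover whole reads, a library's values were divided by the smallest one that was not 0, and 100% came out whole within 1e-06. Reads on genes numbered 14955172 to 20442942 in MUT3 libraries, and intervals cover counting error only. The columns were assigned by the sample labels.

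Genes with a mean of at least 10 were fitted on log2(value + 1) with limma 3.58.1 (vooma weights, R 4.3.3) for the dose slope, 25 ng/ml against lower doses, any doxycycline against none, and the slope of MUT3 against WT10, and p-values were adjusted by Benjamini and Hochberg over all genes fitted. The comparisons within MUT3 cells share their libraries, and p-values measure the spread between single libraries. Variances were moderated over all genes by limma's empirical Bayes step. Alternatives included edgeR 4.0.16 and DESeq2 1.42.0 on the recovered reads, other scalings, filters, pseudocounts, trends with length and GC content removed, other dose scales and leaving out each library. On simulated data with a slope of 0.15 changed genes were recovered in 78.0 to 82.1% for the dose slope (13317 genes), with 3.76 to 8.59% of calls false. For the slope of MUT3 against WT10 (12644 genes) 18.2 to 22.1% were recovered at 0.15 and 77.3 to 88.3% at 0.3. The median called rising slope was 0.08, and slopes that small were not simulated. The simulated counts were drawn independently around exact slopes, with a spread set by the level of expression. Shifts shared by a whole library and spread particular to a gene were not included. The percentages recovered and false therefore hold for such counts only, and are not error rates of the calls made here. Symbols were matched to GENCODE for 92% of 23368 genes.

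The genes named were RBM47, IL8, DKK1, VEGFA, the 10 largest called rises and falls of each comparison within MUT3 cells, or where fewer passed all of them and then those of smallest p up to 5, every called list member, and the members with the largest and smallest slope of a list described, apart from some that are not reported here. The dose series, gene lists and tests were chosen with earlier results of these data known. The lists that the study drew from these libraries required no correlation in MUT3 cells, so they are no independent evidence. Of the members fitted, 0 of 101 and 0 of 92 had a dose slope at an adjusted p under 0.05.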

Additional observations from a re-analysis of the deposited data

Results flagged for a closer look

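The dose slope differed between MUT3 and WT10 cells, by the test of the difference itself in the fit of 12644 genes, for 17 of the genes named. Most of the genes named were chosen for their change in the same MUT3 libraries. The MUT3 slope was higher for SEMA3B (0.37), SLC37A1 (0.28), CSF1 (0.29), TPX2 (0.18) and CENPE (0.28). SEMA3B rose from 95.04 to 239 in MUT3 cells and was at 191 and 142 at the ends of the WT10 series, and the mitotic genes TPX2 and CENPE rose in MUT3 cells and fell in WT10 cells, to 6185 and 910 at 25 ng/ml.

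The MUT3 slope was lower for IL1A (-0.89), IL8 (-0.81), MFI2 (-0.50), MMP1 (-0.47), ICAM1 (-0.45), DKK1 (-0.41) and LOC100288077 (-0.41). It was also lower for the RNAs that were highest in the untreated MUT3 library, RMRP (-1.53), RPPH1 (-0.87), MALAT1 (-0.85) and HIST1H1E (-0.61), and for the zinc finger pseudogene ZNF137P (-0.58). All 17 differences were also called by edgeR and with only the WT10 and MUT3 libraries, though MMP1 and LOC100288077 may share reads. None passed without the 25 ng/ml libraries or with the log2 RBM47 count in place of dose, and HIST1H1E did not pass with a pseudocount of 10 (adjusted p = 0.0586).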

How the results depend on the processing

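No paired analysis was possible because each clone and dose has 1 library and the labels carry no shared replicate numbers. The dose slope was called for 177 genes, and for 2 with all 15 libraries in the fit, 68 by DESeq2 and 297 with length and GC trends removed. DESeq2 gave no adjusted p for some genes, which were counted as not called. Leaving out 1 library gave 35 to 273 genes. The comparison of 25 ng/ml with the lower doses called 70 genes, and 1 with all 15 libraries, 31 with length and GC trends removed and 45 to 180 with 1 library left out. Any doxycycline against none called 17 genes, and 5 by DESeq2, 6 with a mean of at least 100, 0 with all 15 libraries (limma, 105 at an unadjusted p under 0.05) and 3 to 49 with 1 library left out. The difference from WT10 was called for 711 genes, 2992 with only WT10 and MUT3 libraries, 0 without the 25 ng/ml libraries (limma, 790 unadjusted; the edgeR test of all libraries called 674) and 0 with log2 RBM47 (1426 unadjusted). With TMM factors the dose slope called 90 rising and 70 falling genes in place of 114 and 63. The cause of these changes was not tested, beyond the smaller number of libraries where some were left out. In the fits of all 15 libraries with grouped doses, changes among the grouped doses of WT10 and WT6 cells also counted as spread.

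Of 1311 values of named genes under an alternative, 1007 kept their direction and side of the threshold and 10 newly passed. A further 293 no longer passed, counting values for which DESeq2 gave no adjusted p, such as MFI2 (slope 0.26, against 0.27). The remaining 1 reversed: RELB, whose slope with 1 library left out ran from -0.010 (without 25 ng/ml) to 0.084. The fit of all 15 libraries accounted for 74 of the 293. The count of the inflammatory list under other sets of libraries was added after the data were seen. Depth limits the genes with few reads, since 3 reads are worth 2.76 to 3.75 normalized counts in MUT3 libraries.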
